A study of Mus musculus with 12 samples.

Results

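The genes described are 9 genes linked in the mouse to blood monocytes and to macrophages that enter injured tissue: Ccr2, Ly6c2, Plac8, Chil3, Arg1, F10, Cd5l, Slamf7 and Gda. They are 9 of the 46078 genes in the count table, found by their symbols, and all 9 passed the filter on low counts. Some were chosen by their counts, because they were almost absent from naïve white matter and had many counts in lesions, so the injury contrast helped to choose them. Their rise after injury is therefore given as a description without a test, and the tests of the 9 genes below concern age in lesions.

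White matter of the ventrolateral spinal cord of C57Bl6 mice was laser-captured and its RNA sequenced. The 4 groups were young naïve (6 weeks), middle-aged naïve (8 months), young injured and middle-aged injured, the ages being those of the study's methods since the labels give only the words. Injured mice had received lysolecithin, a detergent-like lipid that strips myelin, into this white matter 72 h (day 3) earlier, and naïve mice had no lesion. Each of the 12 libraries was made from pooled RNA of 5 mice, 3 libraries a group, so that 1 replicate is a pool and mice within a pool cannot be told apart. No transgene or cell sort was used, and every pool is bulk tissue in which more cells of a type and more RNA per cell cannot be told apart.

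Monocytes are made in the bone marrow and leave it with the help of the chemokine receptor CCR2, which follows a small group of CCL chemokines released by damaged tissue. In mice, classical monocytes carry much Ly6C on their surface, and they lose it as they turn into macrophages. In demyelinated white matter these macrophages and the resident microglia both take up myelin debris, and the lesion macrophages can switch on genes such as Arg1 and Chil3 that are low in resting microglia.

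Pools held 9834447 to 12807437 counts on genes, and counts are also given as CPM, counts scaled to a common library size with TMM factors. The markers of the labelled tissue were present: summed over 6 oligodendrocyte genes, pools held 52942 to 101823 CPM in naïve and 7920 to 20232 CPM in injured white matter. The naïve sums differed by age, at 86589 to 101823 CPM in young and 52942 to 60237 CPM in middle-aged pools. Summed over 9 microglia genes, naïve pools held 461 to 1002 CPM (461 to 617 in young and 727 to 1002 in middle-aged mice). Injured pools held 3435 to 4733 CPM. Naïve pools with few or no counts of the 9 genes described here thus did contain microglial RNA. The microglia genes did not all move with their sum. By injury, 6 were called higher and 1 lower in young mice (28.3% and 26.3% of all genes tested). In middle-aged mice 4 were called higher and 2 lower (29.2% and 29.3%). Their median log2 changes were 1.85 in young and 0.34 in middle-aged mice. Summed over 10 neutrophil genes, pools held 0.272 to 1.07 CPM in naïve and 11.4 to 28.8 CPM in injured white matter. Of these genes 3 could be tested, and 2 were called higher by injury in young and 3 in middle-aged mice, whereas Elane had 0 counts in every lesion pool and Ly6g and Retnlg did not exceed 3.

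Ccr2 (ENSMUSG00000049103, chromosome 9 of GRCm38, 124101950 to 124113557, plus strand) encodes the receptor that brings monocytes out of the marrow. It had 0 counts in all 3 young naïve pools, and 11, 1 and 11 counts in the middle-aged naïve pools. The young injured pools held 896, 1031 and 641 counts and the middle-aged injured pools 1470, 1968 and 1306. The groups did not overlap at any step, and the lowest middle-aged lesion lay above the highest young lesion. Against a floor of 3 counts over the 3 young naïve pools, Ccr2 was at least 673-fold higher in young lesions, and in middle-aged mice the ratio of injured to naïve was 185 (95% interval 123 to 292). Such intervals and floors cover counting error only, since amplified reads are not independent molecules.

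Ly6c2 (ENSMUSG00000022584, chromosome 15, 75108158 to 75111970, minus strand) encodes the Ly6C surface protein of classical monocytes. It was the weakest of the 9 genes in lesions. Counts were 3, 1 and 1 in young naïve pools and 5, 3 and 0 in middle-aged naïve pools, against 22, 30 and 22 in young injured pools. The middle-aged injured pools held 172, 53 and 19 counts, a wide spread. After scaling to CPM their lowest pool, at 1.64, lay within the young injured range of 1.61 to 2.32, and their highest, at 14.3, was far above it. The ratio of injured to naïve was 11.6 (95% interval 4.77 to 36.9) in young and 27.4 (13.7 to 64.1) in middle-aged mice.

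Ly6c2 has a near copy, Ly6c1, the form known from endothelial cells, and the pair is shown because reads from the 2 genes can be hard to assign. Their coding sequences of 396 bases each differ at 9 bases, an identity of 97.7%, and the longest identical stretch runs over 188 bases. The stretch from base 6 to base 65 of the coding sequence, with differing bases in capitals, reads in the GENCODE transcripts on GRCm38 as follows.
Ly6c2: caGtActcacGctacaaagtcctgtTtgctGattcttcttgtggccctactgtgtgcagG
Ly6c1: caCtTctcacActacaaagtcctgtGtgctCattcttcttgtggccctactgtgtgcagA
This window holds 6 of the 9 differences. Of the 2714 stretches of 31 bases in Ly6c2 transcripts, 23.7% also occur in another gene, mostly in Ly6c1, so the Ly6c2 counts are uncertain. Ly6c1 held 290 to 428 counts in young naïve and 293 to 359 in young injured pools, many times the Ly6c2 counts and without their rise. It held 304 to 471 counts in middle-aged naïve and 367 to 466 in middle-aged injured pools.

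Plac8 (ENSMUSG00000029322, chromosome 5, 100553725 to 100572245, minus strand) encodes a small cysteine-rich protein found in monocytes and other myeloid cells. It was listed at 0 counts in all 6 naïve pools. Young lesions held 58, 79 and 67 counts and middle-aged lesions 197, 116 and 86, so that each middle-aged pool lay above each young one. The rise was at least 53.5-fold in young and at least 119-fold in middle-aged mice. None of its 31-base stretches occurs in another gene.

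Chil3 (ENSMUSG00000040809, chromosome 3, 106147554 to 106167564, minus strand) encodes Ym1, a secreted chitinase-like protein that marks alternatively activated macrophages. Its only naïve count was 1, in replicate 3 of the middle-aged naïve group. Young injured pools had 307, 313 and 251 counts and middle-aged injured pools 396, 448 and 477, with no overlap and with little spread within either group. The rise was at least 228-fold in young mice. Against that single naïve count, the ratio at middle age was 1185 with a wide 95% interval of 212 to 46857.

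Chil3 too has a close copy, Chil4, and 41.5% of its 31-base stretches occur elsewhere. The coding sequences of 1197 and 1209 bases are 94.4% identical, with 56 mismatches and 12 gap bases, and the 60 bases from position 500 of Chil3 show how the differences cluster (capitals).
Chil3: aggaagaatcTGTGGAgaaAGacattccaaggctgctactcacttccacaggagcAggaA
Chil4: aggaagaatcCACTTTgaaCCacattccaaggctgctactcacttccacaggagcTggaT
Chil4 had 0 counts in all 12 pools. All counts of the pair thus lay on Chil3.

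Arg1 (ENSMUSG00000019987, chromosome 10, 24915221 to 24927484, minus strand) encodes arginase 1, which splits arginine into ornithine and urea. Naïve pools held a few counts, 1, 6 and 2 in young and 15, 2 and 13 in middle-aged mice. Lesions held far more, 2976, 2714 and 2263 counts in young and 3547, 5062 and 2390 in middle-aged mice. The lowest middle-aged lesion fell within the young range, so that the ages overlapped. Ratios of injured to naïve were 695 (95% interval 366 to 1521) in young and 329 (230 to 488) in middle-aged mice.

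F10 (ENSMUSG00000031444, chromosome 8, 13037308 to 13056676, plus strand) encodes coagulation factor X, a clotting protease best known as a liver product. It had 0 counts in all 6 naïve pools. In lesions it had 122, 161 and 125 counts in young and 383, 320 and 221 in middle-aged pools, again without overlap. The rise was at least 107-fold in young and at least 276-fold in middle-aged mice. Of its 31-base stretches, 4.08% occur in another gene.

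Cd5l (ENSMUSG00000015854, chromosome 3, 87357881 to 87371073, plus strand) encodes a secreted scavenger protein of macrophages that protects them from apoptosis. It had 0 counts in young naïve pools and 11, 0 and 2 in middle-aged naïve pools. In lesions its age difference was opposite in sign to that of the other 8 genes, but it was not called (edgeR adjusted p = 0.819). Young pools held 1950, 1681 and 1711 counts and middle-aged pools 1359, 1595 and 606, all below the young ones. In CPM the nearest pools were close, at 127.2 in middle-aged and 128.7 in young lesions. The rise was at least 1401-fold in young mice, and the ratio in middle-aged mice was 246 (95% interval 144 to 462).

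Slamf7 (ENSMUSG00000038179, chromosome 1, 171632403 to 171653035, minus strand) encodes a receptor of the SLAM family, leukocyte surface proteins that mostly bind themselves on neighbouring cells. It had 0 counts in all 6 naïve pools. Young lesions held 158, 223 and 185 counts and middle-aged lesions 562, 321 and 315, without overlap, for a rise of at least 148-fold and at least 358-fold. An exon of Gm37787 lies over Slamf7 on the opposite strand. The strand setting of the counting is not given in the sources used here, so reads of the 2 genes cannot be told apart where their exons overlap.

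Gda (ENSMUSG00000058624, chromosome 19, 21391307 to 21473445, minus strand) encodes guanine deaminase, which turns guanine into xanthine. Naïve pools were not empty, with 1, 4 and 8 counts in young and 1, 2 and 3 in middle-aged mice. Lesions held 309, 299 and 206 counts in young and 440, 590 and 437 in middle-aged mice, without overlap. Ratios of injured to naïve were 49.3 (95% interval 28.6 to 92.9) and 219 (101 to 599).

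**Figure D1:**
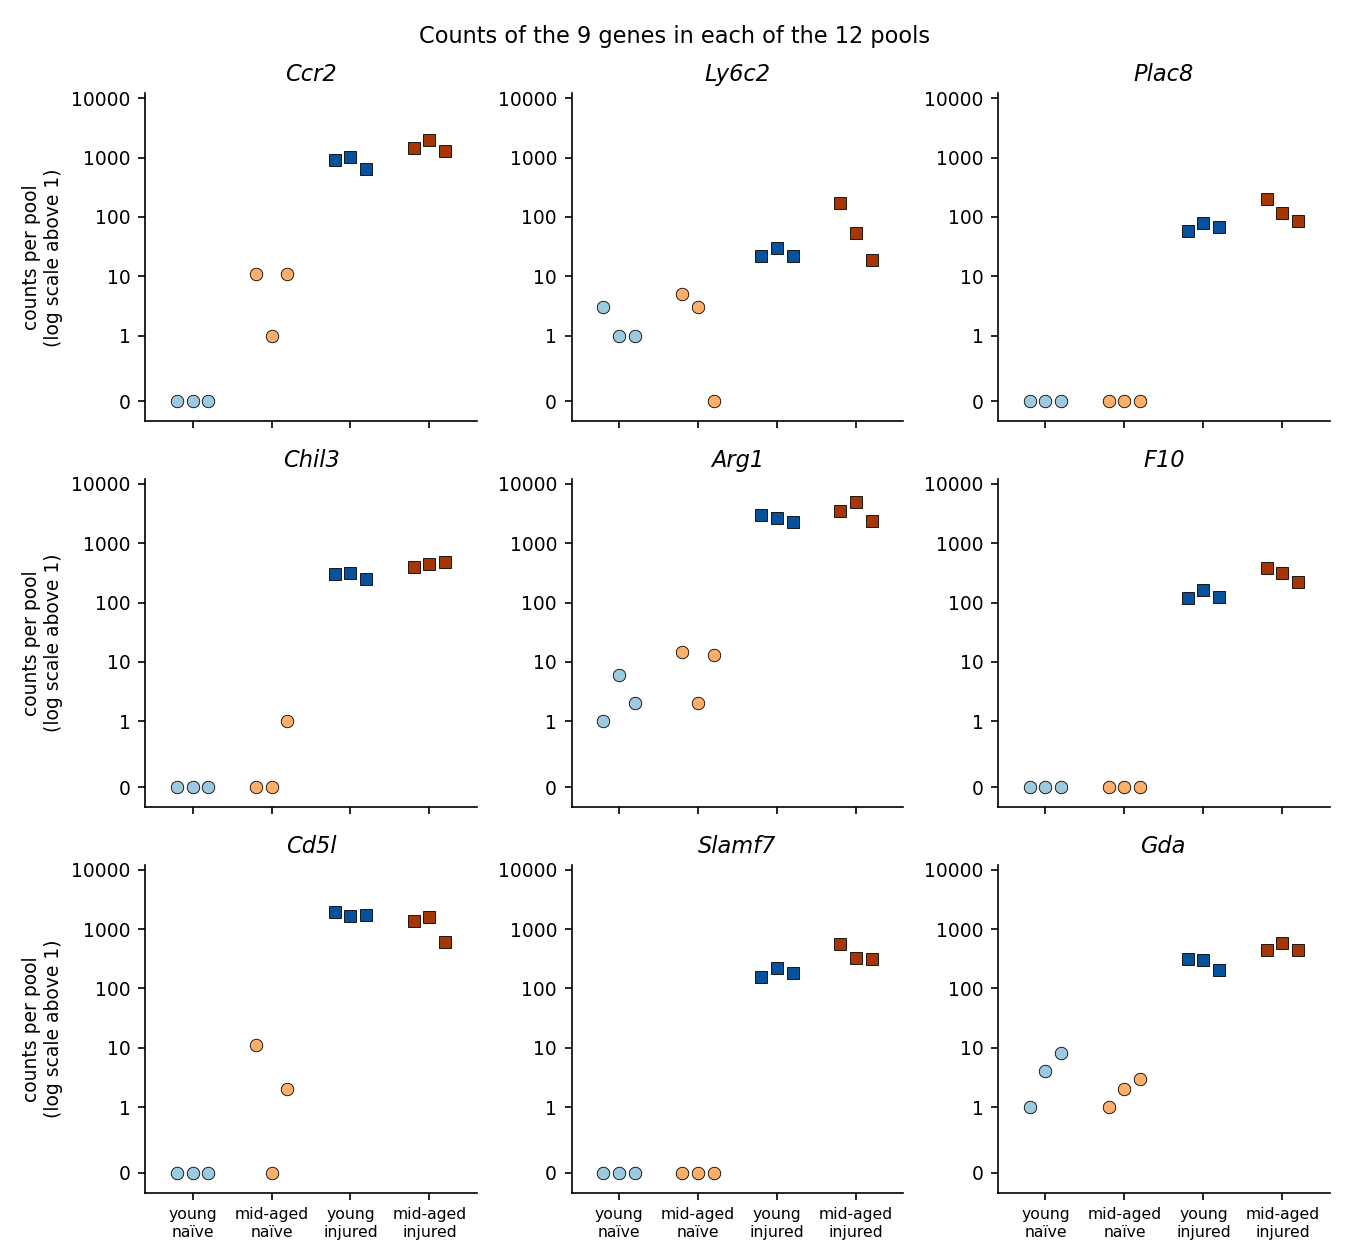
Counts per pool of the 9 genes (y axis, logarithmic above 1 count and linear below) in the 4 groups (x axis), 1 point per pool and 3 pools per group. Every injured pool lies above every naïve pool of its age in all 9 panels, and Plac8, F10 and Slamf7 lie at 0 in all 6 naïve pools.

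For all 9 genes, each injured pool held a higher CPM than each naïve pool of the same age. Among the 15866 genes tested, 35% behaved this way in young and 31.5% in middle-aged mice, and 28.3% and 29.2% were called higher in lesions by edgeR (54.6% and 58.5% in either direction). Under scaling by library totals, the split of young injury calls moved from 4483 higher and 4175 lower to 5377 higher and 3236 lower, and the injury differences of all genes shifted by a median of 0.20 (log2) in young and 0.11 in middle-aged mice. Nothing is read from these shares, because injury helped to choose the genes. In the young naïve group, 6 of the 9 genes had 0 counts in every pool, and in the middle-aged naïve group 3 did.

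Levels of different genes were compared as CPM per kilobase of exon. On this scale the mean level in young lesions was highest for Arg1 at 89.5 ± 11.5 (SD, n = 3 pools), followed by Cd5l at 65.8 ± 3.86, Chil3 at 13.4 ± 1.67 and Ccr2 at 9.55 ± 2.34. The range of Chil3 overlapped that of Ccr2, whereas Arg1, Cd5l and Chil3 stood apart from each other. F10, Gda, Plac8 and Slamf7 lay close together between 3.11 and 3.76 CPM per kilobase, each overlapping the next, and Ly6c2 came last at 0.680 ± 0.145.

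In middle-aged lesions the same 4 genes led in level per length, with Arg1 at 135.2 ± 44.4 (SD, n = 3) CPM per kilobase, Cd5l at 47.8 ± 19.5, Chil3 at 22.4 ± 2.58 and Ccr2 at 19.3 ± 3.46. F10, Slamf7, Plac8 and Gda followed between 6.48 and 9.32 CPM per kilobase, again overlapping, and Ly6c2 was last at 2.45 ± 2.43. In lesions of either age, Arg1, Cd5l and Chil3 had higher mean levels per length than all the other genes, although the pools of Chil3 overlapped those of Ccr2.

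**Figure D2:**
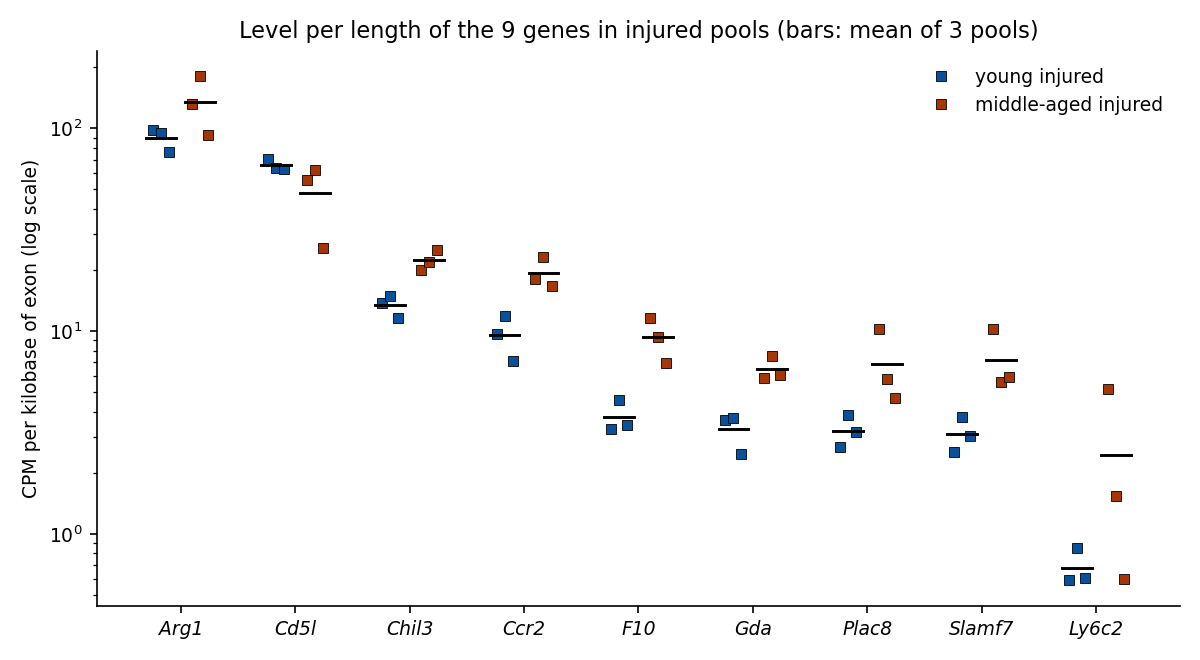
Level of the 9 genes in injured pools (y axis, TMM-scaled CPM per kilobase of exon, logarithmic), with 1 square per pool and a bar at the mean of 3 pools, in young and middle-aged mice. Arg1 and Cd5l lead at both ages, and Cd5l is the gene whose middle-aged pools all lie below the young ones.

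The comparison of ages within lesions asks whether older lesions differ in these transcripts. The rule for the 9 genes does not name it, but some of them were chosen for many counts in these same lesion pools. A gene raised in lesions of either age could pass that choice more easily. The shares of all genes given here are therefore not a reference for an independent choice. Of the 9 genes, 8 (all but Cd5l) had a positive difference, middle-aged over young, as had 50.3% of all genes tested. In 6 of the 9 genes (Ccr2, Plac8, Chil3, F10, Slamf7 and Gda) every middle-aged pool lay above every young pool, against 11.1% of all genes tested, and in Cd5l every young pool lay above, against 12.2%. Ly6c2 and Arg1 overlapped. Adjusted over all 15866 genes, edgeR called 1 of the 9 genes, F10, against 1.15% of all genes (0.24% higher and 0.908% lower). At an unadjusted p under 0.05 it listed 8 of the 9, against 9.63% of all genes. The median difference of the 9 genes was 1.01 on the log2 scale and that of all genes tested 0.0020.

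F10 rose from 10.3 ± 1.91 (SD, n = 3) CPM in young to 25.4 ± 6.35 CPM in middle-aged lesions, a log2 difference of 1.31 (SE 0.25, edgeR adjusted p = 0.0397). The call was lost when any of the 3 young injured pools, or replicate 1 or 2 of the middle-aged injured pools, was left out, with log2 differences of 1.13 to 1.48 and adjusted p of 0.0951 to 0.216. The direction was the same in each of these fits.

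Ccr2, Slamf7 and Gda came next and missed the threshold. Ccr2 stood at 64.6 ± 15.8 CPM in young and 130.5 ± 23.4 CPM in middle-aged lesions (log2 difference 1.01, SE 0.25, edgeR adjusted p = 0.0821). Slamf7 stood at 14.3 ± 2.86 and 33.1 ± 11.7 CPM (log2 difference 1.22, SE 0.27, edgeR adjusted p = 0.0786). Gda stood at 20.4 ± 4.28 and 40.4 ± 5.79 CPM (log2 difference 0.98, SE 0.26, edgeR adjusted p = 0.0971). All 3 genes, with Chil3, passed the threshold with DESeq2, with limma-voom, and in edgeR when only the 6 lesion pools entered the model.

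Chil3 and Plac8 had smaller or noisier differences without overlap. Chil3 stood at 21.9 ± 2.73 and 36.6 ± 4.21 CPM (log2 difference 0.74, SE 0.20, edgeR adjusted p = 0.121). Plac8 stood at 5.14 ± 0.936 and 11 ± 4.71 CPM (log2 difference 1.1, SE 0.35, edgeR adjusted p = 0.242).

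In Arg1 and Ly6c2 the pools of the ages overlapped. Arg1 stood at 199.5 ± 25.7 CPM in young and 301.3 ± 99.0 CPM in middle-aged lesions (log2 difference 0.59, SE 0.25, edgeR adjusted p = 0.400). Ly6c2 stood at 1.86 ± 0.398 and 6.71 ± 6.67 CPM (log2 difference 1.84, SE 0.67, edgeR adjusted p = 0.293). The Ly6c2 value was set largely by replicate 1 of the middle-aged injured group, without which the difference was 0.67.

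Cd5l alone had a lower mean in middle-aged lesions, 97.4 ± 39.7 CPM against 133.9 ± 7.85 CPM in young ones, a log2 difference of -0.46 (SE 0.33, edgeR adjusted p = 0.819). Replicate 3 of the middle-aged injured group was far below the other two, and without it the difference was -0.14.

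**Figure D3:**
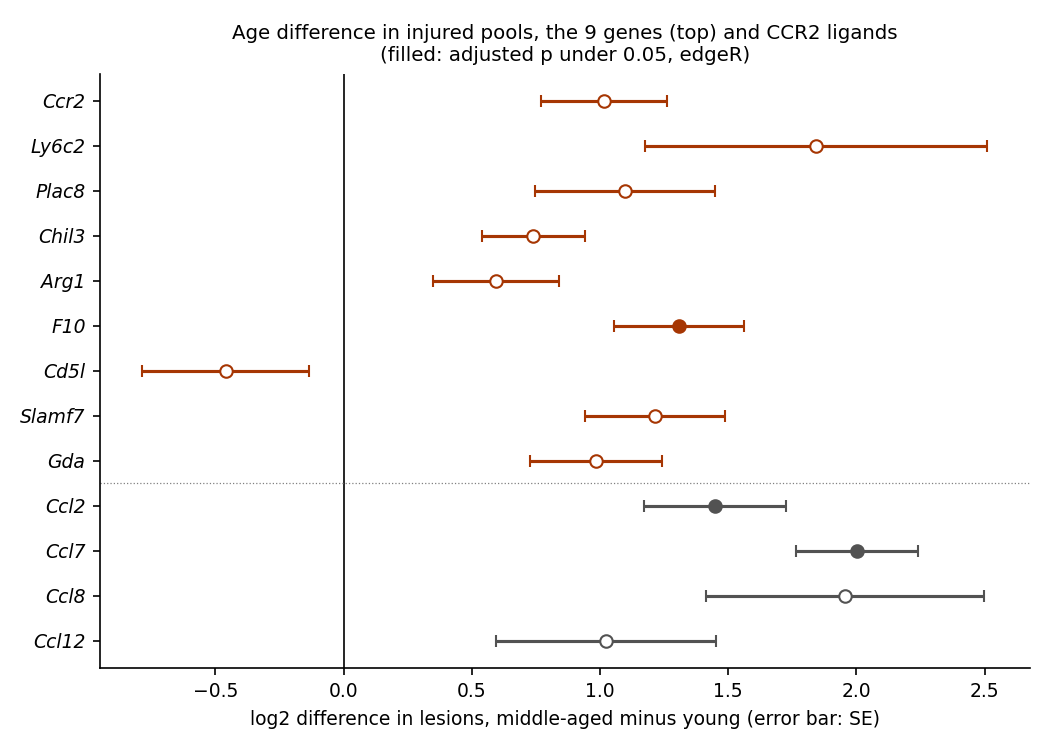
Log2 difference between middle-aged and young injured pools (x axis, positive where middle-aged is higher) with its standard error from edgeR, for the 9 genes above the dotted line and the 4 CCR2 ligand genes below it. Filled symbols have an adjusted p under 0.05: F10 at 1.31, Ccl2 at 1.45 and Ccl7 at 2.0, while Cd5l at -0.46 is the only value below 0.

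Individual pools did not rank alike for all genes. Among young lesions, replicate 2 was highest for 7 of the 9 genes. Among middle-aged lesions, replicate 1 was highest for Ly6c2, Plac8, F10 and Slamf7, replicate 2 for Ccr2, Arg1, Cd5l and Gda, and replicate 3 was lowest for 6 genes. Replicate 3 was also the pool with the most red blood cell RNA, at 11.4 CPM summed over 5 red blood cell genes, where the other lesion pools held at most 1.98 CPM. The part of this RNA in the ranking was not tested.

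Marker genes of cell types were also compared between the ages in the same lesions. Summed over 8 pan-myeloid genes (such as Aif1, Csf1r and Ptprc), pools held 1578 to 1591 CPM in young and 1711 to 2311 CPM in middle-aged lesions. None of these 8 genes was called by age, and 5 of them were higher in every middle-aged pool, against 11.1% of all genes tested. The 6 oligodendrocyte genes summed to 18228 to 20232 CPM in young and 7920 to 12431 CPM in middle-aged lesions, and 5 of the 6 were called lower, against 0.908% of all genes. Microglia genes summed to 3987 to 4406 CPM in young and 3435 to 4733 CPM in middle-aged lesions, and none of the 9 was called. Of the 9, 5 were higher in every young pool (12.2% of all genes) and none in every middle-aged pool (11.1%). Their median difference was -0.32 (log2). The neutrophil genes summed to 11.4 to 18.3 and 18.1 to 28.8 CPM, and 8 lymphocyte genes to 1.73 to 3.74 and 3.35 to 6.80 CPM. Without overlap between the ages, 5 endothelial genes summed to 165 to 219.7 CPM in young and 229 to 260.2 CPM in middle-aged lesions, and 6 dendritic cell genes to 12.1 to 15.5 and 16.0 to 19.0 CPM, with none of either list called. The part of these shifts in the age differences of the 9 genes was not tested.

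Set against the pan-myeloid genes of the same pool (log2 of the ratio to their geometric mean), 5 genes were higher in every middle-aged lesion pool than in any young one, as were 1.27% of all genes tested on this scale, and 33.1% were higher in every young pool. The difference of these log2 ratios was 0.94 for F10, 0.83 for Slamf7, 0.68 for Ccr2, 0.68 for Plac8 and 0.65 for Gda. For Chil3 it was 0.39 and for Arg1 0.20, both with overlapping pools, and for Ly6c2 it was 0.98, also with overlap. For all 8 genes with a positive difference, the value on this scale was smaller than the log2 difference in CPM. Cd5l moved further down on this scale, to -0.91, with every middle-aged pool below every young pool. These values depend on the genes in the denominator: against the 9 microglia genes the difference was -0.31 for Cd5l, 1.28 for Ccr2, 1.28 for Plac8, 0.99 for Chil3, 0.79 for Arg1, 1.54 for F10, 1.43 for Slamf7 and 1.24 for Gda.

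**Figure D4:**
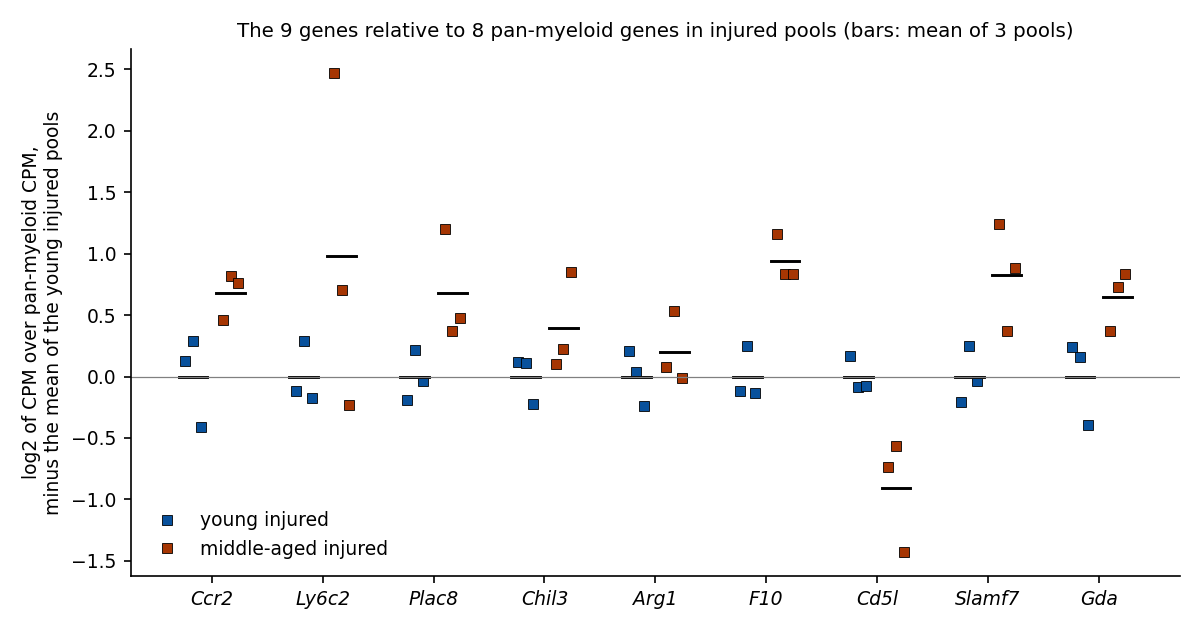
Level of the 9 genes in each injured pool relative to the geometric mean of 8 pan-myeloid genes in that pool (y axis, log2, set to 0 at the young mean), with a bar at the mean of 3 pools. Middle-aged pools lie above all young pools for Ccr2, Plac8, F10, Slamf7 and Gda, below them for Cd5l, and among them for Ly6c2, Chil3 and Arg1.

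Naïve white matter held few counts of the 9 genes at either age. Low naïve counts helped to choose some of them, so their age difference in naïve pools is given as a description. Ccr2 had 0 counts over the young and 23 over the middle-aged naïve pools, at least 7.40-fold more over the floor, and Cd5l had 0 and 13, at least 4.18-fold more. Arg1 had 9 and 30 counts, Ly6c2 5 and 8, and Gda 13 and 6. In Ccr2, Arg1 and Cd5l, replicate 2 held the fewest counts of the middle-aged naïve group. Summed over the 8 pan-myeloid genes, naïve pools held 84.5 to 119 CPM in young and 134 to 169 CPM in middle-aged mice. The part of this difference in the naïve counts of the 9 genes was not tested. The edgeR fit listed 1 of the 9 genes, Ccr2, past its threshold, where 3.8% of all genes were called (2.02% higher), and it no longer did so with limma-voom or without any young naïve pool, replicate 1 or 3 of the middle-aged naïve group, or replicate 1 of either injured group. Nothing is read from these shares, and the 3 genes at 0 in all 6 naïve pools could not have been called.

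The interaction, which asks whether the change from naïve to lesion depends on age, contains the injury contrast that helped to choose the genes and is likewise given as a description. For the 3 genes with over 3 counts in each naïve group, Gda, Ly6c2 and Arg1, the difference of the injury effects (middle-aged minus young) was 2.12 (SE 0.75), 1.22 (SE 1.53) and -1.05 (SE 0.80) on the log2 scale. The edgeR fit listed 0 of the 9 genes, where 0.139% of all genes were called, and 3 at an unadjusted p under 0.05 (Ccr2, Cd5l and Gda), where 9.93% of all genes stood. limma-voom listed 0, DESeq2 listed 1, Ccr2, and edgeR without a filter on low counts listed 2, Ccr2 and Cd5l, both of which had 0 counts in the young naïve pools. Plac8, F10 and Slamf7, at 0 in all naïve pools, give no usable estimate, and nothing is read from these counts. The comparisons of injury, of age and of their interaction share pools and are not independent of each other.

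The ligands of CCR2 rose in lesions and, in part, with age. Ccl2, the main monocyte attractant, had 990, 827 and 655 counts in young and 2158, 2057 and 1910 in middle-aged lesions, and Ccl7 had 357, 290 and 203 against 1118, 1157 and 826. Both were called higher in middle-aged lesions, Ccl2 with a log2 difference of 1.45 (SE 0.28, edgeR adjusted p = 0.0205) and Ccl7 with 2.0 (SE 0.24, adjusted p = 0.00142). The Ccl7 call held in every other setting (highest adjusted p = 0.0221 over the edgeR, DESeq2 and limma-voom fits), and the Ccl2 call did not (0.159). Ccl8 (10, 8 and 7 against 27, 47 and 16 counts) and Ccl12 (47, 48 and 36 against 95, 101 and 48 counts) were also higher in every middle-aged pool after scaling to CPM (for Ccl12, at least 4.14 against at most 3.72 CPM), but did not pass (adjusted p = 0.153 and 0.415). All 4 were called higher by injury at both ages. Over the 3 young naïve pools, Ccl2 had 7 counts, all in replicate 1, Ccl7 had 1, Ccl8 0 and Ccl12 5, so no fold over naïve is given. Over the middle-aged naïve pools, Ccl2 had 71 counts, Ccl7 5, Ccl8 0 and Ccl12 18. Ccl2 was thus also called higher by age without a lesion (log2 difference 3.26, SE 0.69, edgeR adjusted p = 0.0187), from few young counts. The other 3 ligands were not called there.

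Around the 9 genes, 79 further genes of the same roles were counted in 8 lists, of which 78 were in the table and 59 passed the filter. By injury, 50 were called higher and 1 lower at the young age (28.3% and 26.3% of all genes) and 48 higher and 0 lower at middle age (29.2% and 29.3% of all genes), with median log2 fold changes of 2.91 and 2.84 (all genes 0.00064 and -0.032). By age in lesions, 7 were called higher and 1 lower (0.24% and 0.908% of all genes), with a median of 0.34 (all genes 0.0020). The same shares of all genes stand beside the counts of each list that follows. The 7 were Ccl2, Ccl7, Ccr1, Thbs1, Slamf8, Msr1 and Xdh, and the lower gene was Vcan. Their number fell to 3 without young injured replicate 1 and to 1 without replicate 2 or 3 of the young or replicate 1 or 2 of the middle-aged injured group, and Vcan was lost without any of the 6 lesion pools and without replicate 1 or 2 of the young naïve group.

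Among 20 other monocyte genes, 17 were tested, and 16 were called higher by injury in young and 15 in middle-aged mice. Lyz2 (lysozyme) rose by 8.15 log2 units in young lesions (SE 0.20, adjusted p = 3.95e-12), Thbs1 (thrombospondin 1) by 8.16, F13a1 (the A subunit of factor XIII) by 7.0 and Fn1 (fibronectin) by 4.77. By age in lesions, Thbs1 rose with a log2 difference of 1.13 (SE 0.23, edgeR adjusted p = 0.0270) and the chemokine receptor gene Ccr1 with 1.43 (SE 0.28, adjusted p = 0.0238). Vcan, which encodes the proteoglycan versican, fell by 0.75 on the log2 scale (adjusted p = 0.0440). Lyz2 at 0.27, F13a1 at -0.05 and Fn1 at -0.10 were not called.

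Of 10 other Slamf receptors and adaptors, all tested, 8 were called higher and 1 lower by injury in young mice and 9 higher in middle-aged mice. In young lesions Ly9 rose by 7.73 log2 units, Cd48 by 6.18, Cd244a by 6.08 and Cd84 by 4.70. By age in lesions, the called member was Slamf8, with 15, 28 and 17 counts in young and 94, 58 and 78 in middle-aged pools (log2 difference 2.07, SE 0.43, edgeR adjusted p = 0.0337). The list's median age difference was 0.35.

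Arg1 shares its substrate with other enzymes. Of 8 genes of arginine use and transport, 7 were tested and 5 were called higher by injury at each age. Arg2, the mitochondrial arginase, rose by 1.23 log2 units in young lesions (SE 0.36, adjusted p = 0.00974), the citrulline cycle enzymes Ass1 and Asl by 1.09 and 1.05, and the arginine transporter gene Slc7a1 by 0.90. None of the 7 was called by age in lesions, where Arg2 had 34, 36 and 55 counts in young and 71, 76 and 81 in middle-aged pools (log2 difference 1.0, adjusted p = 0.216). Nos2, the inducible nitric oxide synthase that uses the same substrate, had too few counts to be tested.

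F10 lies next to F7, which encodes coagulation factor VII, on the plus strand of chromosome 8 (F7 from 13026034 to 13035809), with 1498 bases between the genes. Both neighbours were almost absent from naïve pools and had many counts in lesions. F7 had 0 counts in young naïve pools and 1 count over the middle-aged naïve pools, 265, 295 and 185 counts in young lesions and 421, 339 and 311 in middle-aged lesions. Its age difference was 0.66 (SE 0.24, edgeR adjusted p = 0.302). Of 12 coagulation genes, 9 were tested, 6 were called higher by injury at each age, and none was called by age in lesions. Tfpi, which inhibits the factor VII and tissue factor complex, rose by 2.78 log2 units in young lesions and F3, tissue factor, by 0.86. F2, the gene of prothrombin, which active factor X cuts, had too few counts to be tested.

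Of 10 genes of chitinase-like proteins and alternative activation, 6 were tested, and 5 were called higher by injury in young and 3 in middle-aged mice. Msr1, a scavenger receptor, rose by 9.86 log2 units in young lesions, and the mannose receptor gene Mrc1 by 3.75. Msr1 was also called higher by age in lesions (log2 difference 0.89, SE 0.18, edgeR adjusted p = 0.0270). Chil1, another chitinase-like gene, rose by 0.90 in young lesions (adjusted p = 0.00807) and was not called in middle-aged ones. Retnla, often named with Chil3 and Arg1 as a marker of alternative activation, had too few counts to be tested.

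In the purine base pathway around Gda, 5 of 8 genes were tested and all 5 were called higher by injury at both ages. Pnp was not analysed here. Xdh, whose product oxidises the xanthine made by guanine deaminase, rose by 3.45 log2 units in young lesions and was called higher by age in lesions (345, 344 and 356 counts against 685, 727 and 490, log2 difference 1.0, SE 0.19, edgeR adjusted p = 0.0204). The salvage enzymes rose in young lesions too, Aprt by 3.62 and Hprt by 0.81, and AMP deaminase Ampd3 by 0.85, without a call by age.

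Genes that accompany Cd5l in tissue macrophages of liver and spleen were mostly missing. Of 8 such genes, 6 (Vsig4, Clec4f, Timd4, Marco, C6 and Spic) had too few counts to be tested. Nr1h3, a sterol-sensing nuclear receptor, rose by 1.1 log2 units in young lesions. It was not called by age, with a log2 difference of 0.70 in the direction opposite to that of Cd5l.

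Profiles over the 12 pools were compared by the Euclidean distance of centred log2 CPM among 13084 genes, as a description of pools that differ mostly by injury. F7 was the nearest gene to Chil3 (distance 0.75), Slamf7 (1.02) and F10 (1.29). Arg1 and Ccr2 were nearest to each other (2.0), and Cd5l was nearest to Arg1 (2.07). Plac8 was nearest to the leukocyte gene Cd53 (1.25) and Gda to Il7r (1.55). Ly6c2 was nearest to G530011O06Rik (1.95) and then to the interferon-response gene Irf7 (2.30), with none of the other members among its 2 nearest genes.

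Promoters were read from RefSeq (GRCm38.p6), 250 bases upstream of the start, for the 8 genes with an entry (10 entries), because the genes were high in the same pools. Arg1 had no entry. The windows of Slamf7, Ccr2 and Gda, both of Plac8 and 1 of Ly6c2 overlap annotated exons of their gene. The core GAGGAA of the myeloid factor PU.1, searched on both strands, was in an entry of 4 of the 8 genes (Cd5l, Plac8, Ly6c2 and Gda), and 23.3% of the 32851 promoters in the table hold it. A gene counts here if any of its entries matches, and Plac8 and Ly6c2 have more than 1, whereas the shares are over single promoters. The C/EBP motif TTGCNNAA was in 2 genes (9.56% of promoters) and the AP-1 motif TGANTCA in 1 (6.75%). Ccr2, Chil3 and F10 had no match in these windows. The promoters of Cd5l, whose age difference was negative but not called, and of Ly6c2 are shown. The match to the PU.1 core is in capitals, starting 66 and 108 bases upstream of the start. They lie at chr3:87357631-87357880 (plus strand) and chr15:75111972-75112221 (minus strand).
Cd5l: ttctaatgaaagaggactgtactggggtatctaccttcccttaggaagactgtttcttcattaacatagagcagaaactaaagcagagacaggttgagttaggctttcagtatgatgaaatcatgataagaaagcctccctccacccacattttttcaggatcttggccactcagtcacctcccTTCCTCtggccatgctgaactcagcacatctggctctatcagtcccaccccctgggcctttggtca
Ly6c2: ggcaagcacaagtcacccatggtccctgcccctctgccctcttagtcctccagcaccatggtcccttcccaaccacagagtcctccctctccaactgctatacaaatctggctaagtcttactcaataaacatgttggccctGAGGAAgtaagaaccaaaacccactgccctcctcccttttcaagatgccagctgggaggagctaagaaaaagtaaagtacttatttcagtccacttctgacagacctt
Cd5l carries the core on the opposite strand, as TTCCTC. A match is a description of letters and not a measured binding site.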

How the data were processed

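The deposited count table held raw featureCounts values made by the authors, who checked reads with FastQC 0.11.4 and mapped them with TopHat 2.0.10 (bowtie 1.1.2 inside) to GRCm38 of Ensembl. The annotation release, the strand setting and the handling of shared reads are not given in the sources used here. Of 46078 gene identifiers, 45143 had a symbol. RNA was amplified before sequencing. Groups and replicate numbers came from the sample labels.

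Tests used edgeR 4.0.16 under R 4.3.3 (TMM scaling, filterByExpr, quasi-likelihood F test), with 1 coefficient per group over all 12 pools and Benjamini-Hochberg adjustment over the 15866 genes tested (threshold 0.05). Standard errors are the log2 difference divided by the square root of F. CPM used TMM-scaled totals, and lengths, coordinates and transcripts came from GENCODE on GRCm38. In each pair of pools of a group, chi-square per degree of freedom was at least 7.48. On simulated counts of the comparison of lesions by age (15610 genes tested), 15% of genes changed by 1 log2 unit and 93% of those changed by 2 were recovered, and 1.82% of the calls were false. The simulation gave every gene the same dispersion and no injury effect, so these rates need not hold for the real pools.

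The 9 genes, the gene lists and the tests were chosen with earlier results of these data known. All 9 genes were named. Of each further list, every gene was counted, and up to 4 were named by the size of their injury difference in young mice (called, mean log2 CPM of at least 1), besides all CCR2 ligands and the copies Ly6c1 and Chil4. Genes called by age, and genes with too few counts to test, were named after their values were seen. Alternatives were DESeq2 1.42.0, limma-voom (limma 3.58.1), 3 other scalings, 2 other filters, a replicate block, only the pools compared, and each pool left out. The result for 1 listed gene is not reported here.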

Additional observations from a re-analysis of the deposited data

How the results depend on the processing

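The age differences of the 9 genes in lesions kept their direction in all 189 values recomputed under 21 other settings, but the number called did not hold. Against 1 in the fit as reported, 5 of the 9 were called with DESeq2, 5 with limma-voom (chosen after the data were seen), 5 without a filter on low counts, 6 with only the pools compared, and 0 to 5 when 1 pool was left out. In naïve pools, where 1 was called, 2 were called with DESeq2, 2 without a filter, 0 with limma-voom and 0 to 1 without 1 pool, and the fit of naïve pools alone tested none of them. The interaction, with 0 called, gave 1 with DESeq2 and 2 without a filter. Over all genes, 182 of 15866 tested were called by age in lesions. Against these stood 441 of 15540 with DESeq2, 235 of 15866 with limma-voom and 437 of 27172 without a filter. With only the lesion pools 821 of 15048 were called, and 45 to 410 without 1 pool. For age in naïve pools, 603 stood against 1073 with DESeq2, 412 with limma-voom, 1153 without a filter, 71 with only the naïve pools and 261 to 799 without 1 pool. For the interaction, 22 stood against 228 with DESeq2, 329 without a filter and 3 to 56 without 1 pool. The cause was not tested.

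Of the further genes, the 1 called lower by injury in young mice became 0 with library totals and 0 to 1 without 1 pool. The 0 called lower in middle-aged mice became 1 with DESeq2, 2 with upper-quartile scaling and 0 to 1 without 1 pool. By age in lesions, the 7 called higher ranged from 1 to 7 without 1 pool, and the 1 called lower became 0 with RLE or upper-quartile scaling and 0 to 1 without 1 pool. Set against the microglia genes in place of the pan-myeloid genes, log2 age differences became 1.28 for Ccr2, 1.28 for Plac8, 0.99 for Chil3, 0.79 for Arg1, 1.54 for F10, -0.31 for Cd5l, 1.43 for Slamf7 and 1.24 for Gda. Small differences changed sign: Ly6c2 in naïve pools was -0.050 with limma-voom and ranged from -0.18 to 1.27 without 1 pool. In lesions by age, F13a1 ranged from -0.094 to 0.030, Fn1 from -0.18 to 0.026 and Tfpi from -0.033 to 0.19 without 1 pool, and Tfpi was -0.021 with library totals. Chil1 by injury in middle-aged mice ranged from -0.017 to 0.48 without 1 pool.

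Pools with the same replicate number come from other mice. Their deviations from the group means did not correlate above 0.1 in every pair of any comparison (0.03, -0.05 and -0.01 in lesions). The highest values were for replicate 2, at 0.12 between the naïve groups and 0.15 between middle-aged naïve and injured pools. Pools of unlike number reached 0.17. No pairing by number was seen in these values, and shared handling by number was not tested. With the replicate number as a block, 0 of the 9 genes were called by age in lesions (F10 adjusted p = 0.0589, edgeR), 1 further gene was called lower by injury in middle-aged mice, and calls over all genes were 189 by age in lesions, 529 by age in naïve pools and 31 for the interaction.

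At 3 pools a group, an exact permutation test cannot go below p = 0.1. For a gene at 0 counts over the young naïve group, the 3-count floor is 0.0957 CPM.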
